A study of Drosophila melanogaster with 10 samples.

Results

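The 10 genes described here encode the histone variant H2A.Z of Drosophila melanogaster (His2Av) and 9 subunits of the complexes that place it into nucleosomes or remove it. They were taken by gene name from the deposited tables and make up 10 of 17869 genes in set 1 and 10 of 11799 genes in set 2. RNA came from S2 cells, a cultured line that the labels give as late embryonic and that resembles blood cells (hemocytes). Cells of all 5 groups carried transfected Achaete (Ac), a proneural transcription factor, together with its partner Daughterless (Da), and all had received double-stranded RNA (dsRNA) for the knockdown (KD) of a gene. In set 1 there were 2 libraries of each of 3 groups, namely H2A.Z KD with wild-type Ac (Ac WT), Luc KD with Ac WT and Luc KD with the Ac variant R29G. In set 2 Luc KD and Arp6 KD, both with Ac WT, had 2 libraries each. Luc is the control target, and the sample titles of set 1 call it only the control. No group lacked dsRNA or Ac and Da, so the members' levels in untreated S2 cells are not known from these data.

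H2A.Z replaces ordinary H2A in a share of nucleosomes, mostly beside gene starts, and flies have a single H2A variant gene, His2Av, that serves the roles of both H2A.Z and H2A.X. An ATP-driven remodeler, in flies built around the ATPase Domino (dom), exchanges the histones, and its partner subunits hold the variant, bind the nucleosome or keep the motor assembled. Several of the subunits also belong to the Tip60 acetyltransferase complex, the INO80 remodeler or the Brahma complexes. A knockdown lowers the RNA of its target, and whether the RNAs of the partner subunits then differ is what the values below describe.

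Reads counted in the deposited features ranged from 24500413 to 33712374 per library for set 1 and from 9396318 to 10608470 for set 2. Set 1 was deposited as 2 tables, A and B, each with 1 library of every group, and the libraries of set 2 are replicates 1 and 2. Values below are scaled reads (counts of reads over a single factor for each library), and the sets were scaled apart, so their levels are not compared. No label tells whether the libraries of a group stem from different cultures, and the p-values reflect only how far these libraries differed, possibly for technical reasons. Of 10 hemocyte marker genes all had a mean above 10 in both sets. Of 11 markers of other cell types 7 of set 1 and 5 of set 2 did, the highest being bam at 1871 and 740.4 on average, and in set 1 Lsp1alpha was listed at 0. Arp6 KD replicate 1 stood apart from replicate 2 in its target and in the transfected genes. Its ac value was 9869.8 against 26670.0 in replicate 2, beside 20334 and 28708 in Luc KD, and its da value was 23754 against 53698, beside 51739 and 65741. The members' differences in set 2 are therefore given with and without it.

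His2Av (FBgn0001197, BDGP6 3R:26866929-26869220, plus strand), the histone gene itself, was strongly depleted by its dsRNA. The Luc KD libraries with Ac WT held 6489 scaled reads in table A and 5679 in table B, and the H2A.Z KD libraries 1702 and 789.9. Both KD libraries lay far below all 4 Luc KD libraries of the set, the R29G pair standing at 6092 and 5674. The share left was 26.2% of the matched control in table A (95% interval 24.8 to 27.7, exact Clopper-Pearson) and 13.9% in table B (12.8 to 15.1). These intervals cover counting error only, because reads without molecular identifiers are not independent molecules. They are therefore too narrow, and the difference between the KD libraries was not tested. The log2 difference was -2.39 (SE 0.31), a 5.23-fold fall with an adjusted p of 0.0193 in limma over 11942 genes, and 1.19e-08 with the table as a block. Without the block the call was lost when either Ac WT control library (adjusted p = 0.103 without that of table A, 0.141 without that of table B) or either R29G library (0.0605 and 0.0590) was left out, while the difference stayed at -2.29 to -2.48. With the block it passed in all 6 fits with 1 library left out. In such fits a group left with 1 library is assumed to vary like the others. The authors' deposited table gives -2.29 (SE 0.29, adjusted p = 1.51e-12). In bulk RNA, fewer cells of a type and less RNA per cell cannot be told apart, and this holds for every difference below.

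Arp6 (FBgn0011741, BDGP6 X:15735774-15737120, minus strand), an actin-related subunit that yeast needs for H2A.Z exchange, was depleted to very unequal extents by its own dsRNA. Luc KD libraries of set 2 held 483 and 438 scaled reads and Arp6 KD libraries 386 and 96.5. Both KD libraries were below both controls, but replicate 1 only by a little. Replicate 1 kept 79.8% of its control (95% interval 69.4 to 91.6) and replicate 2 kept 22.0% (17.6 to 27.4). Against the other control library, replicate 1 stood at 88.1% with an interval of 76.6 to 101, which reaches equality. The log2 difference of -1.25 (SE 0.51) had an adjusted p of 0.701 in limma over 10605 genes. Without Arp6 KD replicate 1 it was -2.24 (adjusted p = 0.00479), and without Arp6 KD replicate 2 it was -0.25 (adjusted p = 0.469). In these fits the Arp6 KD arm holds 1 library and the spread comes from the 2 Luc KD libraries alone, so these p-values assume that Arp6 KD libraries vary as little as those. Whether subunit RNAs answer to depletion of Arp6 RNA is thus measured here on 1 library with clear depletion and 1 with little.

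**Figure D1:**
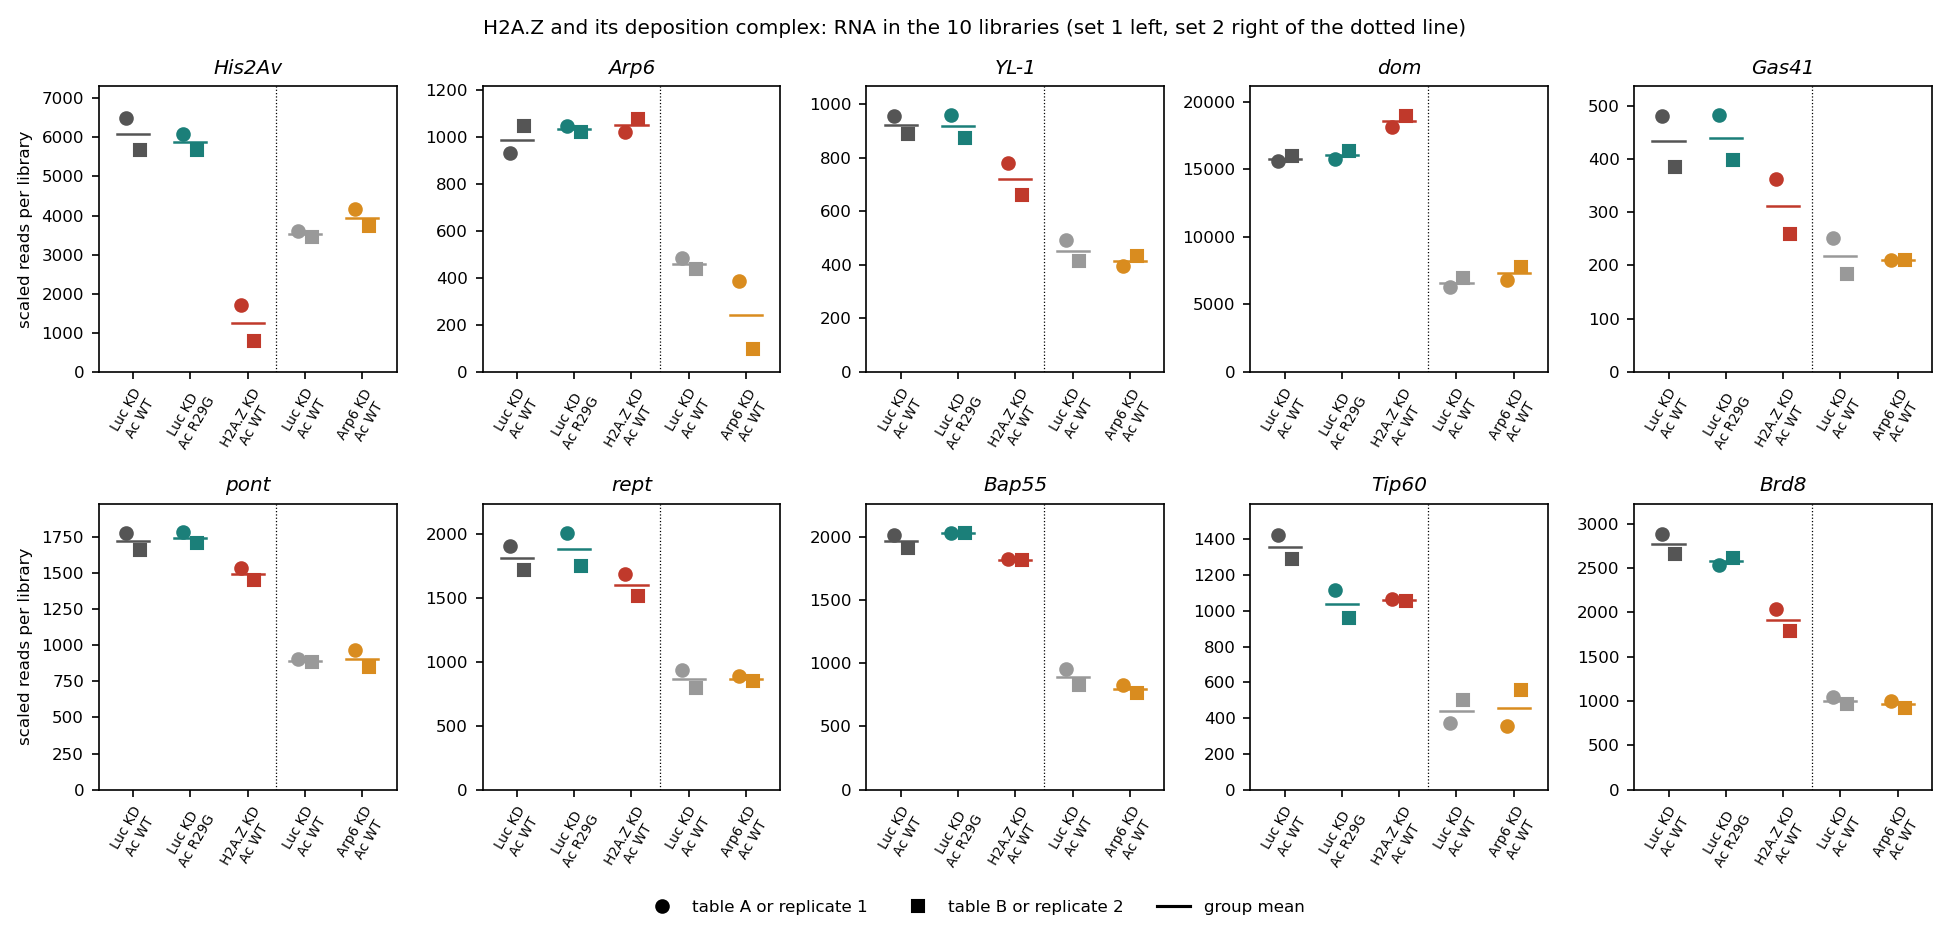
Scaled reads of the 10 members in each of the 10 libraries (y axis from 0, 1 panel a gene), with set 1 left and set 2 right of the dotted line, circles for table A or replicate 1, squares for table B or replicate 2 and a bar for the mean of the group. His2Av falls to 1702 and 789.9 in H2A.Z KD, Arp6 is at 386 and 96.5 in its own knockdown, and the other members stay within a far narrower range.

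Smaller differences were seen in most of the other 9 members in H2A.Z KD, 7 with a lower and 2 with a higher mean. Only RNA was measured, so the amount of H2A.Z protein left in these cells is not known. Without a block, limma called 1 of the 9, Brd8, which was lower, where 2.19% of all genes were called lower and 2.45% higher. With the table as a block it called 7 of the 9, 6 lower and 1 higher, where 19.3% of all genes were lower and 18.4% higher. The KD and control libraries did not overlap for 8 of the 9, with 7 lower and 1 higher, against 27.0% of all genes lower and 25.0% higher. The median log2 difference of the 9 was -0.21, beside -0.01 over all genes tested. With 2 libraries against 2, an exact permutation test of a single gene cannot go below p = 0.333 (two-sided), so calls rest on the fit across genes. The block is printed because libraries of the same table varied together.

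Beside these differences, markers of the cells themselves moved. Of the 10 hemocyte markers, 2 rose without the block (NimC1 by 2.58 on the log2 scale and eater by 0.71), where 2.45% of all genes did. With the block 8 rose, where 18.4% of all genes did. All 10 had a positive difference, beside a median of -0.01 over all genes tested. Their summed level was 556945 to 739966 in H2A.Z KD and 465968 to 583446 in Luc KD with Ac WT, ranges that overlap. Of the markers of other cell types 9 were tested and none passed with or without the block, their sum being 2536 to 3059 in H2A.Z KD and 2335 to 2863 in Luc KD with Ac WT. The transfected da was at 72676 and 65240.1 in H2A.Z KD against 104492 and 92873 in Luc KD, while ac was at 14079 and 25982 against 17276 and 24780.2. The part of these differences in the members' values was not tested.

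Among subunits that act on histones or carry the motor, YL-1 and Gas41 had lower and dom had higher values in H2A.Z KD. YL-1 (FBgn0032321, BDGP6 2L:10970443-10972093, plus strand), the subunit whose human and yeast counterparts bind the H2A.Z-H2B dimer, stood at 955 and 889 in Luc KD and at 781 and 660.5 in H2A.Z KD. Both KD libraries were lower, and the log2 difference was -0.36 (SE 0.12, adjusted p = 0.139 in limma, 0.00218 with the block). The blocked call was lost without the Ac WT control library of table B (adjusted p = 0.0596). Gas41 (FBgn0031873, BDGP6 2L:6949310-6950207, minus strand), whose human counterpart binds acylated histone tails through a YEATS domain, was at 482 and 385 in Luc KD and at 364 and 260.0 in H2A.Z KD. It was the member with the fewest reads, 213 to 566 in these 4 libraries. Its control in table B lay only slightly above the KD library of table A, and its difference of -0.48 (SE 0.21) had an adjusted p of 0.208 in limma and 0.00176 with the block.

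The ATPase gene dom (FBgn0020306, BDGP6 2R:21323430-21341847, plus strand) was the 1 member with a higher level in H2A.Z KD among those that passed with the block. It stood at 15583 and 15986 in Luc KD and at 18142 and 18956 in H2A.Z KD, which is 116% (95% interval 114 to 119) and 119% (116 to 121) of the matched control. Both KD libraries were above all 4 Luc KD libraries, the R29G pair being at 15764 and 16310.3. The log2 difference of 0.23 (SE 0.09) had an adjusted p of 0.153 in limma and 0.00162 with the block. Under quantile normalization it was 0.03 (adjusted p = 0.662 with the block), so the rise of dom depends on the scaling. The values are per gene and do not tell apart the DOM-A and DOM-B proteins, the first of which works with Tip60 and the second with Arp6 in flies. Small nucleolar RNA genes lie in dom introns.

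For Arp6 and the AAA+ ATPase pair the differences were smaller. Arp6 was at 932 and 1047 in Luc KD and at 1023 and 1079 in H2A.Z KD, and these ranges overlap. Its log2 difference of 0.09 (SE 0.10) had an adjusted p of 0.644 in limma and 0.413 with the block. The ATPases pont (FBgn0040078, BDGP6 3R:10262123-10263899, plus strand) and rept (FBgn0040075, BDGP6 3L:19255340-19257111, plus strand) form a joint ring in several remodelers. For pont the values were 1779 and 1659 in Luc KD against 1531 and 1450.4 in H2A.Z KD, a difference of -0.21 (SE 0.09, adjusted p = 0.222 in limma, 0.0218 with the block). For rept they were 1900.0 and 1716 against 1686 and 1514, a difference of -0.18 (SE 0.11, adjusted p = 0.384, 0.0437 with the block). The blocked call of rept was lost whichever library was left out (adjusted p = 0.0612 to 0.276), and that of pont without either Ac WT control library (0.171 without that of table A, 0.125 without that of table B). Within a library their ratio changed little, with 0.94 and 0.97 reads of pont per read of rept in Luc KD and 0.91 and 0.96 in H2A.Z KD. Bap55 (FBgn0025716, BDGP6 2R:17429353-17430963, minus strand), an actin-related protein shared with the Brahma complexes, was at 2015 and 1914 against 1826 and 1815. Its libraries did not overlap, yet the difference of -0.11 (SE 0.08) passed neither without nor with the block (adjusted p = 0.467 and 0.208).

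The subunits that belong to the Tip60 side held the member that passed both ways. Brd8 (FBgn0039654, BDGP6 3R:29223485-29226276, plus strand), a bromodomain subunit, was at 2887 and 2662 in Luc KD with Ac WT, at 2535 and 2617 with R29G and at 2038 and 1787 in H2A.Z KD. All 4 Luc KD libraries were above both KD libraries, which kept 70.6% (95% interval 66.6 to 74.8) and 67.2% (62.9 to 71.6) of their matched controls. The fall was -0.54 on the log2 scale (SE 0.10), 1.45-fold, with an adjusted p of 0.0371 in limma and 1.35e-05 with the block. The authors' deposited table gives -0.53 (adjusted p = 3.27e-04). In it Brd8 is the only one of the 9 past 0.05, where 17.2% of the 8518 features with an adjusted p are. It lists 16530 features. Without the block, leaving out any 1 of the 6 libraries put Brd8 above 0.05, with adjusted p between 0.0595 and 0.164 and differences between -0.63 and -0.44. With the block it passed in all 6 such fits. Its last exon bases overlap CG14507 on the other strand over 2.6% of its length, and the sources used here do not state whether counting used the strand.

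Tip60 (FBgn0026080, BDGP6 X:4114800-4117487, minus strand), the acetyltransferase, was at 1427 and 1288 in Luc KD and at 1068 and 1056 in H2A.Z KD. The KD libraries were lower, with a difference of -0.35 (SE 0.11, adjusted p = 0.121 in limma, 0.00169 with the block). The R29G libraries, which had the control knockdown, were at 1115 and 959, so for Tip60 the Luc KD libraries with Ac WT stood above both other groups of the set. Tip60 exons overlap the opposite-strand genes tyf over 15.6% and dgt4 over 5.4% of their bases, so part of its reads may belong to them.

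**Figure D2:**
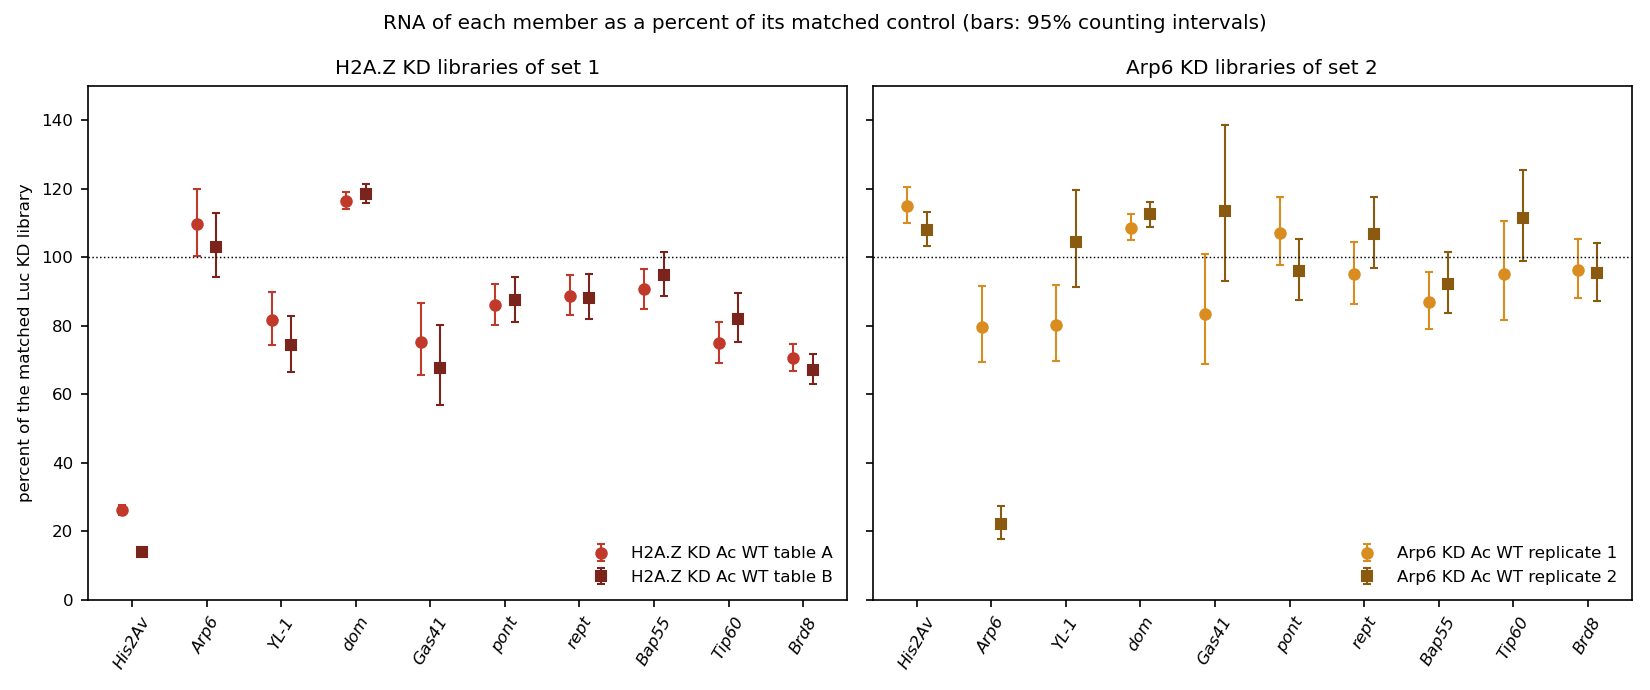
Percent of the matched Luc KD library left for each member in H2A.Z KD (left, set 1) and Arp6 KD (right, set 2), with circles for table A or replicate 1, squares for table B or replicate 2 and bars for 95% counting intervals. In H2A.Z KD the libraries put Brd8 at 70.6% and 67.2% and dom at 116% and 119%, while in Arp6 KD replicate 1 Arp6 itself is at 79.8%.

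Ratios within a library do not depend on any scaling. There were 5.40 and 6.01 reads of dom per read of Brd8 in Luc KD with Ac WT, 6.22 and 6.23 with R29G, and 8.90 and 10.6 in H2A.Z KD, with no overlap between KD and control libraries. For dom over YL-1 the values were 16.3 and 18.0, then 16.4 and 18.7, and 23.2 and 28.7 in H2A.Z KD, again without overlap. For dom over Tip60 they were 10.9 and 12.4, then 14.1 and 17.0, and 17.0 and 18.0, so that the KD libraries reached the level of the R29G library of table B. For dom over Arp6 they moved little, with 16.7 and 15.3, then 15.02 and 15.98, and 17.7 and 17.6 in H2A.Z KD. The RNAs of dom, Brd8 and YL-1 stood in other proportions in H2A.Z KD. These ratios restate the differences of single genes given above and are no separate evidence. How often the ratios of other gene pairs fail to overlap was not tested, and a ratio does not say which of its terms moved.

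Arp6 KD gave no called difference in any other member in limma. Limma called 0 of the 9 without the block, where 0.0283% of all genes were called, and 0 of the 9 with the replicate number as a block, where 0% were. At an unadjusted p under 0.05 there were 0 of the 9 without the block, against 6.97% of all genes, and 3 with it, against 15.8%. DESeq2 and edgeR without the block each called 0 of the 9, where 0.136% and 0.0371% of all genes were called. With the block edgeR called 3, His2Av and dom higher and Bap55 lower, where 10.8% of all genes were called. The libraries did not overlap for 2 of the 9, against 39.1% of all genes. The median log2 difference of the 9 was 0.01, beside -0.01 over all genes tested. Without Arp6 KD replicate 1, the library with little depletion, the Arp6 KD arm holds 1 library, so only differences are given here. The differences were then 0.08 for His2Av, 0.24 for dom, 0.36 for Tip60, -0.22 for Bap55 and -0.12 for Brd8. They were -0.07 for pont, -0.06 for YL-1, -0.04 for Gas41 and -0.02 for rept, so that pont and rept changed sign. The hemocyte markers were positive in 10 of 10 with none called, and their summed level was 227101 to 248785 in Arp6 KD against 195902 to 210502 in Luc KD. That of the other markers was 1200.2 to 1225 against 926 to 1101, again with none called. Without Arp6 KD replicate 1, 8 of the 10 hemocyte markers were positive. Their part in the members' values was not tested.

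The substrate of the complex, His2Av, was at 3616 and 3449.8 in Luc KD and at 4162 and 3728 in Arp6 KD. It was 1 of the 2 members without overlap, at 115% (95% interval 110.0 to 120.5) and 108% (103 to 113) of its matched controls, and its difference of 0.16 (SE 0.07) had an adjusted p of 0.702 in limma. Bap55 was the other, at 953 and 832 against 829 and 766, a difference of -0.16 (SE 0.09, adjusted p = 0.708), and it kept 87.0% and 92.1% of the same-numbered controls. The ATPase gene dom was at 6281 and 6926 in Luc KD and at 6826 and 7791 in Arp6 KD, overlapping ranges with a difference of 0.14 (SE 0.09, adjusted p = 0.728). Against the control of the same number it was higher in both replicates, at 109% (95% interval 105 to 113) and 112% (109 to 116).

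The remaining subunits did not keep 1 direction across the replicates or lay close to their controls. YL-1 was at 493 and 413 in Luc KD and at 395 and 432 in Arp6 KD, that is, at 80.1% of control in replicate 1 and 105% in replicate 2. Gas41 was at 252 and 185 against 210.1 and 210.0, and its counts of 190 to 238 reads leave wide intervals. Brd8, called in H2A.Z KD, stood at 1045 and 967 against 1006 and 922, a difference of -0.06 (SE 0.08, adjusted p = 0.848). The difference between the responses of Brd8 to the 2 knockdowns was not tested. Tip60 was at 376 and 502 in Luc KD and at 357 and 559 in Arp6 KD, with the replicates further apart than the groups. The ATPases pont (901 and 884 against 966 and 848) and rept (934 and 795 against 888 and 848) differed by 0.02 (SE 0.08) and 0.01 (SE 0.09). A p that misses the threshold does not show that these levels were equal, and the SEs of the 9, 0.07 to 0.21 on the log2 scale, limit what could be seen.

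Between Ac WT and Ac R29G, both under Luc KD, most members stood at similar levels. Limma called 0 of the 10 without the block, where 0% of all genes were called. At an unadjusted p under 0.05 there were 240 genes, 2.01% of all, and 1 member, Tip60. Without the block edgeR and DESeq2 each called 0 of the 10, where 0% and 0.0448% of all genes were called. With the table as a block 1 of the 10 was called, Tip60, higher with Ac WT, where 0.402% of all genes were. Tip60 was at 1427 and 1288 with Ac WT and at 1115 and 959 with R29G, which is 128% (95% interval 119 to 138) and 134% (124 to 146) of the matched R29G library. The groups did not overlap, and the difference of 0.39 (SE 0.11 without and 0.08 with the block) had an adjusted p of 1.000 without and 0.0228 with the block. Its call with the block was lost without the Ac WT library of table A (adjusted p = 0.250) or of table B (0.128), and without the R29G library of table B (0.398). In the authors' deposited table Tip60 has 0.39 with p = 0.00560 and an adjusted p of 1, and 0.0544% of features pass 0.05 there. The libraries of the 2 groups did not overlap for 3 of the 10 members, Tip60, Brd8 and Bap55, against 23.4% of all genes. This comparison shares the Luc KD libraries with Ac WT with the H2A.Z KD comparison, so high Tip60 values in those libraries enter both.

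For the other members the R29G values lay close to those of Ac WT given above. The R29G libraries of tables A and B held 1049.9 and 1021 scaled reads of Arp6 and 961 and 875 of YL-1, within or near the spread of the Ac WT pair. They held 1784 and 1703 of pont and 2006 and 1749.9 of rept, and 483 and 399 of Gas41. Bap55, at 2031 and 2030.5, lay just above its Ac WT libraries. The differences of these 6 and of His2Av, dom and Brd8 were between -0.07 and 0.11 on the log2 scale.

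**Figure D3:**
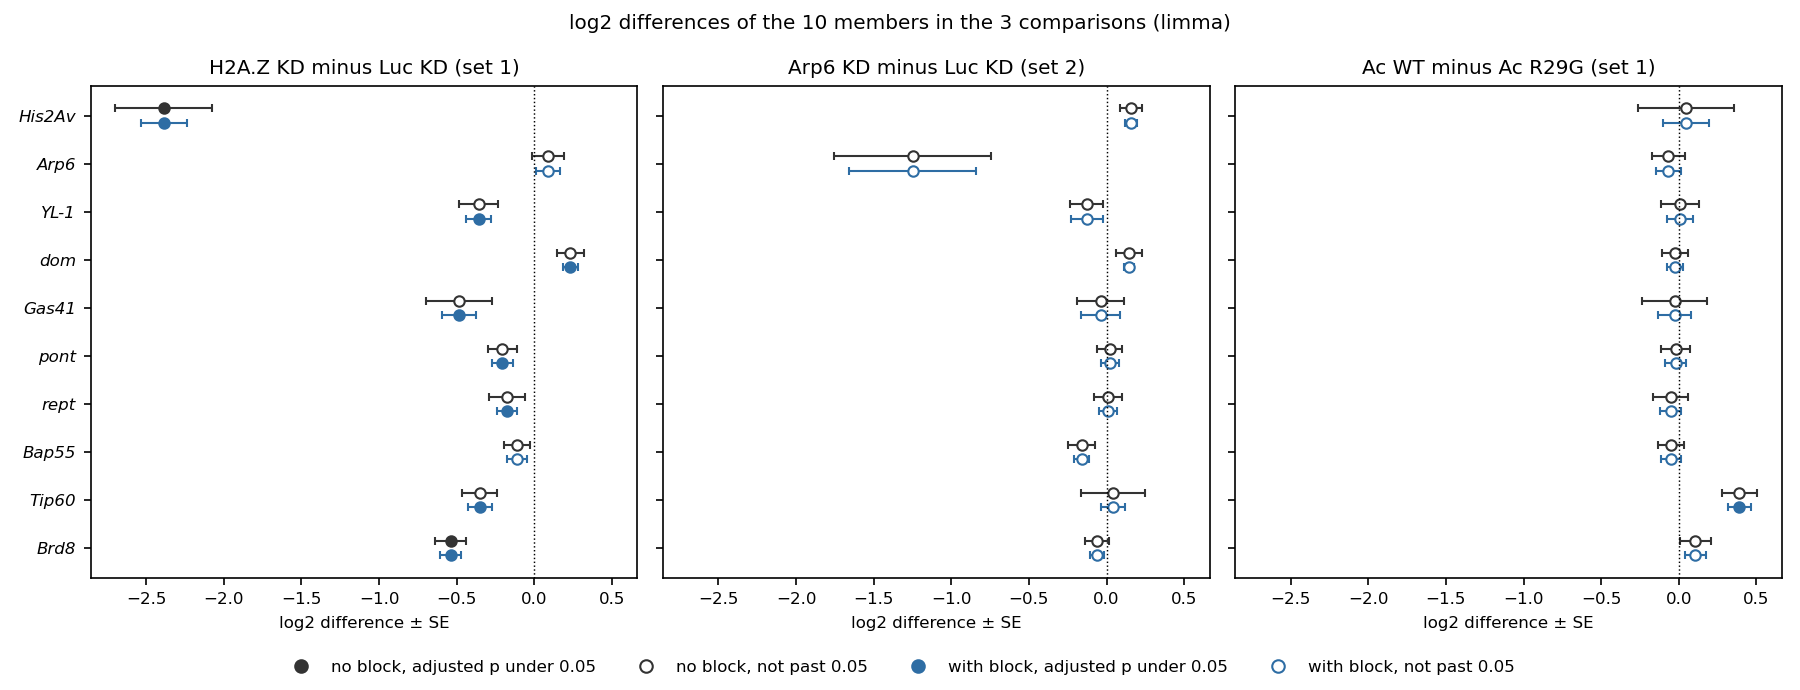
Log2 differences of the 10 members with their standard errors (x axis) in H2A.Z KD against Luc KD, Arp6 KD against Luc KD and Ac WT against Ac R29G, without a block (black) and with one (blue), filled where the adjusted p is under 0.05. In limma, His2Av and Brd8 pass without the block in H2A.Z KD at -2.39 and -0.54, and no member passes in Arp6 KD, where Arp6 itself is at -1.25.

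The members were made at unequal levels in control cells. Per kb of exon, His2Av stood highest in Luc KD with Ac WT of set 1, at 4971 ± 468 scaled reads per kb (SD, n = 2). Next came Bap55 at 1334 ± 48.7, dom at 1212 ± 21.9, pont at 1036 ± 51.0, rept at 1020.2 ± 73.6 and Brd8 at 994 ± 57.2. The values of pont, rept and Brd8 overlapped between libraries, so their order is not set. Arp6 followed at 735 ± 60.4, YL-1 at 633 ± 32.2, Tip60 at 563 ± 40.8 and Gas41 at 516 ± 82.1, the last pair overlapping. Set 2 gave His2Av first at 2886 ± 96.0 and Bap55 second at 606 ± 58.4, and Tip60 last at 182 ± 37.0 instead of Gas41, at 259.9 ± 56.4. These levels are per exon length of the annotation and do not correct for the isoforms used.

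**Figure D4:**
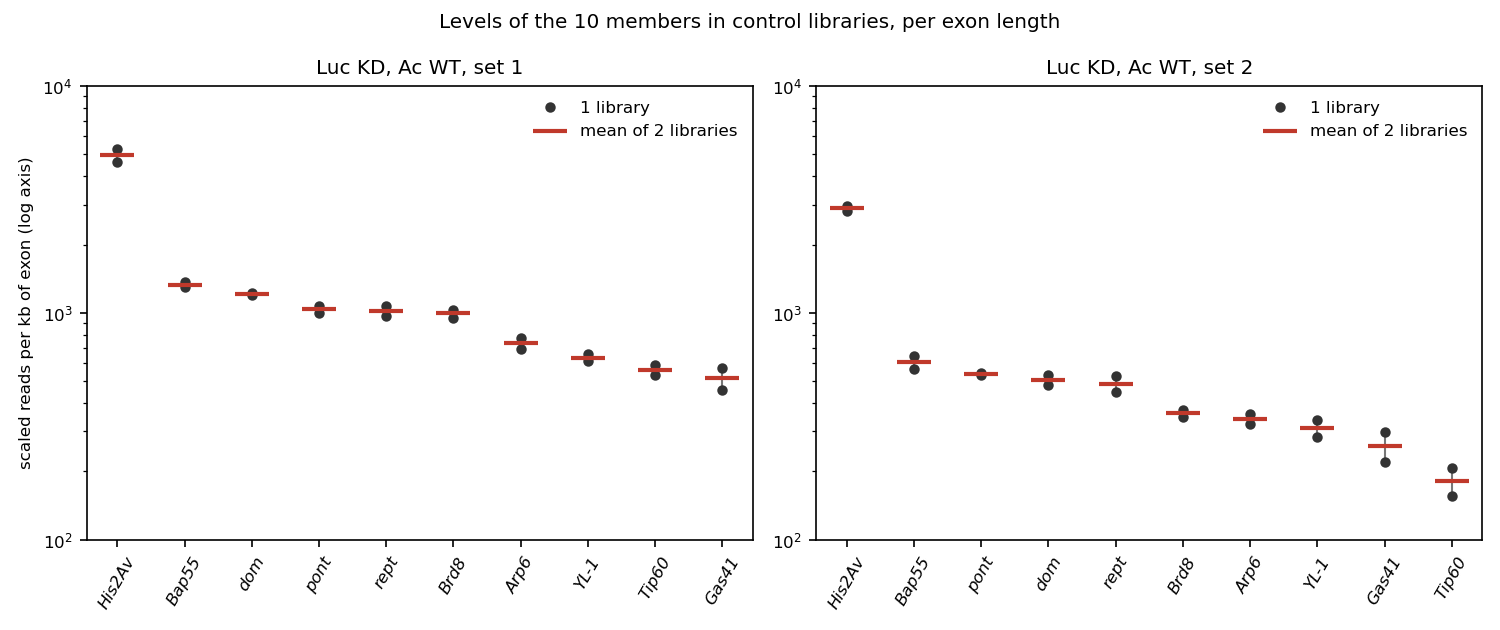
Scaled reads per kb of exon (log axis) of the 10 members in the Luc KD libraries with Ac WT of set 1 (left) and set 2 (right), each point 1 library and each red bar the mean of 2. His2Av, at 4971 and 2886, stands above every other member in both sets, and Bap55 is second in both.

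Other genes of the same and of overlapping complexes were read from 4 lists. Of 11 further Tip60/Domino subunits, 10 were tested in set 1, and CG31917 was listed at 0 in all 6 libraries. In H2A.Z KD none passed without the block, 9 of 10 had a negative difference, and the median was -0.19. With the block 4 fell, namely DMAP1 (-0.39), MRG15 (-0.30), the TRRAP-like scaffold Nipped-A (-0.23) and the actin gene Act87E (-0.81). The actin gene Act5C rose (0.25). Of all genes, 19.3% were called lower and 18.4% higher with the block. Actin genes are close copies of each other, so their counts are uncertain, and Act87E differed more between tables (166 and 510.3 in Luc KD) than between groups. For DMAP1 the values were 1291 and 1050.2 in Luc KD and 1031 and 767 in H2A.Z KD.

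The INO80 remodeler, which uses pont and rept, held a gene with a larger fall than any of the 9 members. Arp5, its actin-related subunit, was at 673 and 694 in Luc KD, 609 and 614 with R29G and 428 and 344 in H2A.Z KD. Its difference was -0.83 (SE 0.14, adjusted p = 0.0301 in limma, 1.11e-05 with the block). Arp5 was 1 of 4 listed genes called without the block, where 4.65% of all genes were. With the block the ATPase gene Ino80 also fell, by 0.48 on the log2 scale. Thus 2 of 4 passed with the block, where 37.7% of all genes did. Of 10 Brahma complex genes 0 passed without the block (median -0.04), and with it Snr1 (-0.23), mor (-0.16) and brm (-0.16) fell and Act5C, on this list too, rose. Of 5 other histone variants 0 passed without the block, and with it the H3.3 genes His3.3B (0.45) and His3.3A (0.24) rose. These counts with the block stand beside 19.3% of all genes called lower and 18.4% higher. His3.3B was at 25777 and 21446 in Luc KD and at 33404 and 31050.1 in H2A.Z KD. In Arp6 KD no gene of the 4 lists passed, where 0.0283% of all genes were called without the block and 0% with it. Between Ac WT and R29G none passed either, where 0% of all genes were called without the block and 0.620% with it. In Arp6 KD the medians were 0.00 for the Tip60/Domino list, -0.03 for INO80, 0.06 for the Brahma complexes and 0.15 for the histone variants. Without Arp6 KD replicate 1 they were -0.02, 0.01, 0.01 and 0.09.

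Genes with a course like that of the targets were sought by the smallest root mean square difference between centred log2(value + 1) profiles. Over the 6 libraries of set 1 and 9102 other genes with a mean of at least 10, the nearest to His2Av was trk, which encodes a ligand of the receptor Torso, at 0.15, beside a size of 1.16 for the profile of His2Av itself. It was at 34.9 and 36.7 in Luc KD, 40.0 and 38.7 with R29G and 9.0 and 4.88 in H2A.Z KD. CG3457 followed at 0.24, CG4594 at 0.25, asRNA:CR46139 at 0.29 and lncRNA:CR44511 at 0.31. The means of trk and lncRNA:CR44511 were only 27.4 and 23.7, so their profiles carry much counting error. CG3457 was at 294 and 320.5 in Luc KD and at 86.7 and 56.2 in H2A.Z KD. Over the 4 libraries of set 2 the nearest to Arp6 were CG43222 (0.26), MFS10 (0.36), CG42656 (0.47), CG13375 (0.48) and CG3457 (0.50), beside 0.94 for Arp6 itself. These 5 had means of only 10.0 to 21.1, near the lower limit, so their profiles carry much counting error. CG3457, on both lists, was at 29.6 and 28.2 in Luc KD of set 2 and at 16.3 and 10.4 in Arp6 KD. The likeness is a description of these libraries, with no test.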

How the data were processed

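RNA-seq libraries of S2 cells were deposited in 3 tables of library values, 2 for set 1 (6 libraries) and 1 for set 2 (4 libraries). The deposited values are a signal, reads per feature scaled by the authors, not raw counts. In each library 100% of them are whole multiples of 1 factor within 0.001 reads, so the counts behind them were recovered. Partek and the BDGP6 genome are named, per the submitters' processing notes. The sources used here do not state the aligner, the strand of counting or the kit of each library. The authors also deposited log2 fold changes with standard errors, a test statistic (a score) and p-values, raw and adjusted, for 2 comparisons. Their fold changes were not fully recovered from the deposited values, and the reason was not tested.

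Set 1 was rescaled by the median of ratios over all features, since its tables had been scaled apart, and set 2 kept its deposited values. Only genes were tested, and 5578 transposon and 485 miRNA features of set 1 were left out. Differences were tested with limma 3.58.1 (R 4.3.3) on log2(value + 1) with an intensity trend. Genes needed a mean of 1 or more, the 3 groups of set 1 shared 1 spread, and calls were made at 0.05 after Benjamini-Hochberg adjustment. Fold changes on this scale understate those of low genes. Alternatives used edgeR 4.0.16 and DESeq2 1.42.0 on the recovered counts, other scalings, pseudocounts and filters, and left-out libraries. The procedure was also run on simulated counts with large planted changes and no shared deviation of tables or replicates. That run does not bear on differences as small as those of most members, or on the use of a block.

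The libraries of a table in set 1 were deposited and scaled together and deviated together from their group means (r = 0.62, 0.58 and 0.65 over 9103 genes), so the table was read as a block. This pairing rests on the tables, whose names mark A as the first and B as the second, and on the correlations. The sample titles do not tell which table a replicate is in. Column names give no replicate number in set 1, so its libraries are named by table. The members and all lists were chosen with earlier results of these data known. All 10 members were named, and of the lists the genes that passed in a comparison without or with the block, plus the 5 genes nearest to each target. Gene coordinates are those of the files. Calculations used Python 3.11.15 and pandas 2.3.3.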

Additional observations from a re-analysis of the deposited data

How the results depend on the processing

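The His2Av difference in H2A.Z KD kept its direction under every alternative run (-2.94 to -1.83). It missed the threshold at -2.39 without the intensity trend (adjusted p = 0.128), without the trend but with the block (0.0731) and with only the 2 groups compared (0.0584). Leaving out 1 library gave -2.94 to -1.83 without the block (2 of 6 called) and -2.87 to -1.91 with it (6 of 6 called). Of the 9 other members, 7 were called with the table block (37.7% of all genes were), 7 with TMM and the block (38.8%), 6 with quantile normalization and the block (31.1%), 4 with median scaling and the block (38.3%; dom and Arp6 higher, Brd8 and Gas41 lower), and 7 with edgeR and the block (49.5%). None (0) was called without the trend, with or without the block, or with only the 2 groups. Leaving out 1 library gave 0 in all 6 fits without the block and 4 to 6 with it (21.8% to 40.7% of all genes). The other alternatives kept 1, which was Brd8 except under median scaling, where dom passed (0.39, adjusted p = 0.0482) and Brd8 did not (-0.38, 0.0632). Median scaling moved the median of all genes from -0.01 to 0.13, and relative to it the median of the 9 members was -0.18, against -0.19 without that scaling. Under it the Bap55 difference was 0.05.

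Arp6 in its own knockdown passed under edgeR with the replicate block (-1.02, adjusted p = 1.68e-27). That fit has 4 libraries for the groups and the block, so its p-value rests largely on a spread shared across genes. It says little about the unlike depletion of the Arp6 KD libraries, at 79.8% and 22.0% of control. With the replicate number as a block in limma Arp6 did not pass (-1.25, adjusted p = 0.272). Leaving out 1 library gave -2.24 to -0.25 for Arp6. In set 2 the same-numbered libraries correlated at 0.50 over 7976 genes, but 2 pairs do not establish a pairing. Under edgeR with the block 3 other members passed (His2Av, adjusted p = 0.0101, dom, 0.0313, and Bap55, 0.0339), where 10.8% of all genes did. Under the other alternatives with all 4 libraries 0 passed, where 0% to 1.71% of all genes did. Between Ac WT and R29G, Tip60 was the 1 member called with the block, also with TMM, quantile or median scaling or edgeR (1 in each), and leaving out 1 library with the block gave 0 to 1. Combinations with the block other than edgeR's were chosen after seeing the data.

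Genes called in H2A.Z KD numbered 555, but 4497 with the block, 374 without a filter, 359 with quantile normalization, 986 with median scaling, 1389 with DESeq2, 20 with only the 2 groups, 2 without the trend and 4 to 92 with 1 library left out. For higher against lower calls the split was 293 to 262, but 234 to 341 with TMM and 806 to 180 with median scaling. In Arp6 KD the 3 genes became 0 with the block, 16 with DESeq2, 181 with median scaling and the block and 870 with edgeR and the block. Between Ac WT and R29G the 0 became 74 with the block, 8 with DESeq2 and 141 with edgeR and the block. The cause of these changes was not tested. Low counts limit what can be seen in set 2, with 190 to 238 reads of Gas41 and 102 to 457 of Arp6.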
